A study of Rattus norvegicus with 12 samples.

Results

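The genes described here encode the enzymes and regulators of cholesterol and fatty acid synthesis. They were chosen by name, as a fixed list of 31 genes, and an older symbol of the same gene was accepted (Sc4mol for Msmo1, Sc5dl for Sc5d, Acat3 for Acat2). All 31 had a probe on the array, and 29 were among the 18511 genes tested. The remaining pair, Srebf1 and Acaca, had probes too close to background for a test. By step of the pathway, 8 genes lead from acetyl-CoA to squalene, 10 from squalene to cholesterol, 6 sense or regulate sterols and 7 make fatty acids.

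The groups were injured rats killed at day 7 after the operation, injured rats killed at day 3, and sham-operated rats killed at day 7, with 4 rats and 4 arrays in each. All were female F344 rats, an inbred strain, 10 weeks old, and RNA came from the left kidney. The injury was ischemia-reperfusion injury (IRI), in which the blood supply of a kidney is stopped and then restored, and it was made in the left kidney only, for a time not given in the sources used here. No sham group at day 3 was used here, so a difference between day 3 and sham also spans a difference in time after the operation. The study concerned the repair of renal tubules after injury, adaptive and maladaptive.

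Cells make cholesterol from acetyl-CoA through mevalonate, isoprenoids and squalene, and make fatty acids from the same acetyl-CoA through malonyl-CoA. Both branches are controlled by the SREBP transcription factors, encoded by Srebf1 and Srebf2. The protein Scap escorts SREBPs out of the endoplasmic reticulum when sterols are scarce, and the Insig proteins hold them back when sterols are plentiful. In kidney tubules these pathways supply membrane lipid, and proximal tubule cells otherwise burn fatty acids for fuel.

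Each array gave an intensity per spot, and the values below are log2 intensities relative to the 75th percentile of their own array. A value of 0 is thus the brightness of that percentile, and levels of different probes are not compared with each other. The unscaled 75th percentile was 422 to 562 intensity units at day 7, 665 to 743 at day 3 and 225 to 394 in sham, where replicate 3 was the dimmest array. Group values are means ± SD (n = 4), and fold changes are limma estimates ± SE with p values adjusted over all 18511 genes. A gene was called changed at an adjusted p below 0.05. The number of arrays limits the precision. In whole kidney, fewer cells of a type and less RNA per cell cannot be told apart.

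At day 3, 9 of the 18 enzymes of the sterol branch rose over sham and 3 fell. Squalene epoxidase (Sqle) rose 3.32-fold, the methylsterol oxidase Msmo1 3.06-fold, lanosterol demethylase (Cyp51) 2.89-fold and the isoprenoid kinase Pmvk 2.52-fold. Against them squalene synthase (Fdft1) fell 2.26-fold and the fatty acid desaturase Fads2 fell 2.22-fold. Of the 29 tested genes 13 were called higher and 4 lower, that is 44.8% and 13.8%, whereas 24.2% of all genes were called higher and 33.1% lower. The median log2 fold change was 0.38 over the 29 genes and -0.13 over all genes. Scaling by the summed signal of an array (total signal scaling) moved the median of all genes to 0.15. Of the 29 genes 17 were then called, 15 higher and 2 lower. Of the 10614 genes called among all 18511, 58.5% were higher, against 42.2% of the 10607 called in the main scaling. The median over the 29 genes was then 0.66. With the normexp background correction, an alternative way to remove local background, it was -0.01 over the 29 genes and -0.41 over all genes, and 0.01 and -0.27 when spots under their local background were left out.

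**Figure D1:**
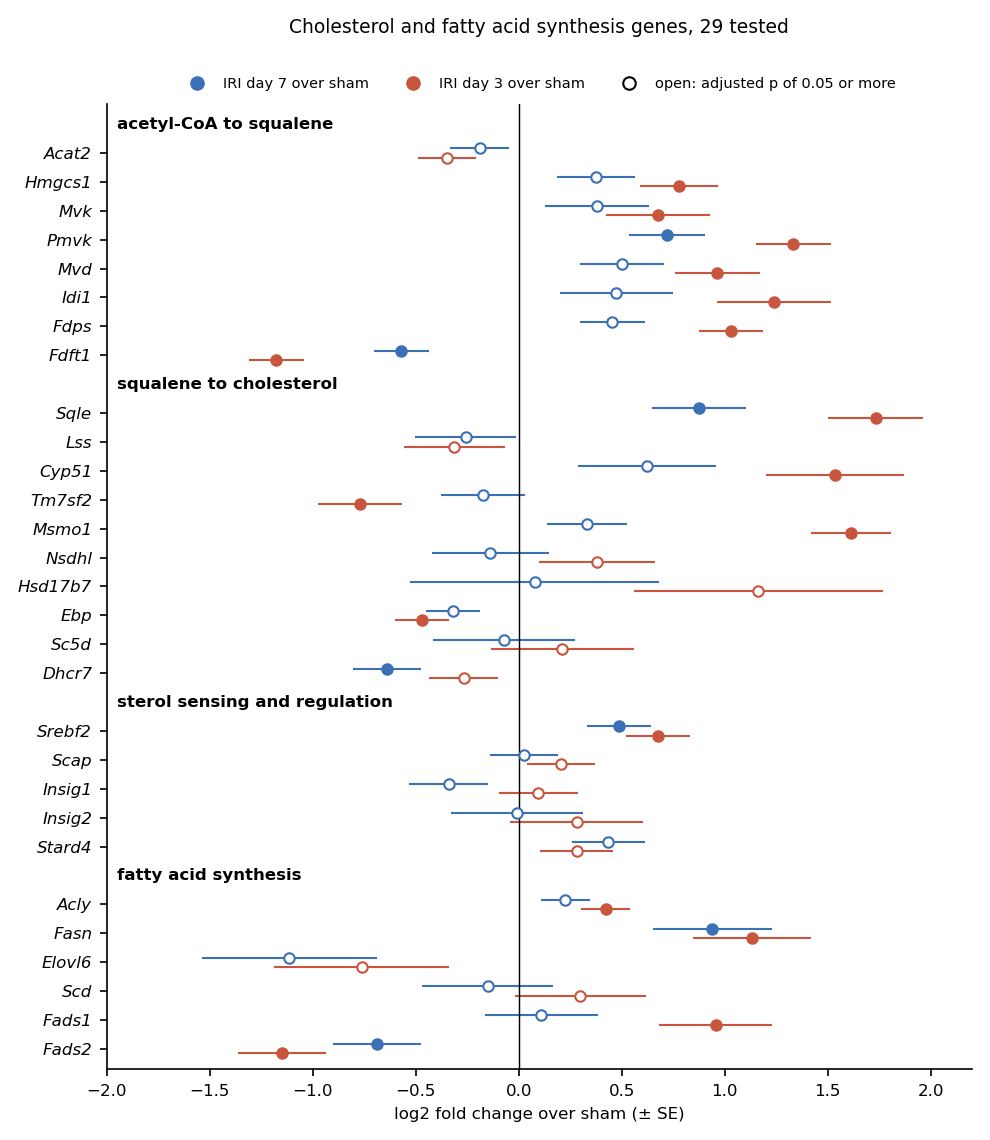
Log2 fold change over sham (x axis, ± SE) of the 29 tested genes, ordered by pathway step, for IRI day 7 (blue) and IRI day 3 (red). Filled points passed an adjusted p of 0.05. At day 3 Sqle (1.73), Msmo1 (1.61) and Cyp51 (1.53) stood highest, and Fdft1 (-1.18) and Fads2 (-1.15) lowest.

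Of the 31 genes, 24 had a promoter in the RefSeq table (300 bases around the start, most of them before it, build GRCr8). A pair of short motifs was searched on both strands. The core of a sterol regulatory element, TCACNCCAC, was in none of these 24 promoters and in 1.12% of all 33469 promoters. The box of the factor NF-Y, a known partner of SREBPs, reads CCAAT, or ATTGG on the other strand. It was in 18 of the 24 promoters (75%), against 37.5% of all promoters. It stood in 9 of 10 promoters of genes higher at day 3, in 2 of 3 of genes lower and in 6 of 10 of genes not called. These are matches of letters only. Promoters of genes that moved are shown, from 5′ to 3′ along the gene, with this box in capitals. Msmo1, Fdps, Mvk, Cyp51 and Fads1 rose at day 3, and Tm7sf2 and Fads2 fell.
Msmo1 promoter, chr16:29746863-29747162 (+): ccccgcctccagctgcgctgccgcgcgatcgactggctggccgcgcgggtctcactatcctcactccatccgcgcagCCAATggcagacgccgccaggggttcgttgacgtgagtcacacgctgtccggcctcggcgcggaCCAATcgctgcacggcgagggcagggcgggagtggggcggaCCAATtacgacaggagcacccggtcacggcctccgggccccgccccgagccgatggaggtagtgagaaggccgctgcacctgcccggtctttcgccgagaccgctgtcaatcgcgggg
Fdps promoter, chr2:176804767-176805066 (-): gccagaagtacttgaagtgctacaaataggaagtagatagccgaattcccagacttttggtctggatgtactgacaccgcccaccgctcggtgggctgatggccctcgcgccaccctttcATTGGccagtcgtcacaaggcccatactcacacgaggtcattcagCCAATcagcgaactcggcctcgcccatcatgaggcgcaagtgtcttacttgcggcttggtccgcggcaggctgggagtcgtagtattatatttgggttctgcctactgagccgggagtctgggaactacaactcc
Mvk promoter, chr12:47819454-47819753 (-): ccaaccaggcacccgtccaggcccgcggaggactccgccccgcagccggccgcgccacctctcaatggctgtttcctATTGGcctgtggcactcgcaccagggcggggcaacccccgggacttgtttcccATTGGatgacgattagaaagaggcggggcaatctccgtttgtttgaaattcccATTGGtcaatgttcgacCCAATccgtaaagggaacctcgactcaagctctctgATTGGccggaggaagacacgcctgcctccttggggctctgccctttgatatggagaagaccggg
Cyp51 promoter, chr4:30991443-30991742 (+): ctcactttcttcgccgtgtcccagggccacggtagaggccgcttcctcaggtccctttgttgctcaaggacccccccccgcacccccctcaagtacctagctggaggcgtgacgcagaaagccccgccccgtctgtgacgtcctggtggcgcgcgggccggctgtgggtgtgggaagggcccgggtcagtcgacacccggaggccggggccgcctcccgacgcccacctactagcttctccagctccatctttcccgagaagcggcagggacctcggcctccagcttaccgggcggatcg
Fads1 promoter, chr1:216252442-216252741 (+): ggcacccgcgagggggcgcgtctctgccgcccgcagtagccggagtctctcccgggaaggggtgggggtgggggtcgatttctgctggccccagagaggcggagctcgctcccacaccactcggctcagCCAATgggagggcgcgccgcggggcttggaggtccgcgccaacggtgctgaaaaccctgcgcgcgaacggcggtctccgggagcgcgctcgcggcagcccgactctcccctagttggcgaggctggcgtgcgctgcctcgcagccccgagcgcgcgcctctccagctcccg
Tm7sf2 promoter, chr1:212789492-212789791 (-): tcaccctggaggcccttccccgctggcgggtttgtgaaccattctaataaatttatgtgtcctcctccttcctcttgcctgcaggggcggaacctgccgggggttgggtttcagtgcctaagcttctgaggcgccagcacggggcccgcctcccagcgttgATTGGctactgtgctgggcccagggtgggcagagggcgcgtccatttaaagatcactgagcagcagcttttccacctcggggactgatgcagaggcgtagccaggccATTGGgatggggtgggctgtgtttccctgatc
Fads2 promoter, chr1:216171984-216172283 (-): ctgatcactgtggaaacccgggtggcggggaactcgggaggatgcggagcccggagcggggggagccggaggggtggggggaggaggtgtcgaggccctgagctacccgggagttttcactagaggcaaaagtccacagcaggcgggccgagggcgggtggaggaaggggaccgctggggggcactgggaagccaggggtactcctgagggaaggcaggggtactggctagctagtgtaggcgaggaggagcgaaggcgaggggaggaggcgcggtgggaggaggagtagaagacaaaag
The box occurs 3 times in the Msmo1 window, 2 times in those of Fdps and Tm7sf2, 5 times in that of Mvk and 1 time in that of Fads1. The windows of Cyp51, which rose, and of Fads2, which fell, hold no such box.

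Of the 8 genes from acetyl-CoA to squalene, 6 rose at day 3 and 1 fell, where 24.2% of all genes rose and 33.1% fell. Pmvk, the kinase of phosphomevalonate, stood at 0.36, 0.35, 0.38 and 0.40 on the day 7 arrays, at 1.001, 0.85, 0.65 and 1.43 on the day 3 arrays, and at -0.22, -0.67, -0.45 and -0.05 on the sham arrays. All day 7 and all day 3 arrays lay above all sham arrays, and the day 3 arrays above those of day 7. Its log2 fold change was 1.33 ± 0.18 at day 3 (adjusted p = 0.000107).

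Idi1, which interconverts the C5 isoprenoid units, stood at -0.91, -0.18, -0.18 and -0.93 at day 7, at 0.43, 0.42, -0.56 and 0.57 at day 3, and at -1.02, -0.93, -0.75 and -1.39 in sham. Day 3 replicate 3 lay far below the other day 3 arrays yet above every sham array. The log2 fold change at day 3 was 1.24 ± 0.28 (adjusted p = 0.00247). Fdps, which builds farnesyl diphosphate, the branch point to sterols and other isoprenoids, had 1.74, 1.76, 1.57 and 1.80 at day 7, 2.18, 2.38, 2.12 and 2.50 at day 3, and 1.20, 1.58, 0.94 and 1.34 in sham. Its day 3 arrays were above all others, by 1.03 ± 0.16 over sham (adjusted p = 0.000205), and its dimmer probe gave 0.85 ± 0.21 (adjusted p = 0.00454).

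Hmgcs1, the cytosolic HMG-CoA synthase at the entry of the pathway, averaged -0.09 ± 0.22 at day 7, 0.31 ± 0.36 at day 3 and -0.46 ± 0.14 in sham. It rose 1.71-fold at day 3 (adjusted p = 0.00443). Mvd, which decarboxylates mevalonate diphosphate, averaged -0.24 ± 0.26, 0.22 ± 0.12 and -0.74 ± 0.41 in the day 7, day 3 and sham groups, and rose 1.95-fold at day 3 (adjusted p = 0.00187). Mevalonate kinase (Mvk) averaged -2.36 ± 0.41 at day 7, -2.06 ± 0.13 at day 3 and -2.74 ± 0.50 in sham. Its rise of 0.68 ± 0.25 at day 3 passed narrowly (adjusted p = 0.0379). It lost its call when any of sham replicates 1 and 4 or day 3 replicates 2, 3 and 4 was left out (adjusted p up to 0.101, log2 fold change 0.44 without sham replicate 4), and in the fit that blocks on slide (adjusted p = 0.0702). It was -0.39 with normexp, and 0.01 with normexp when spots under their local background were left out, and was called in neither. Acat2, which joins acetyl-CoA units, stood at -0.35 ± 0.14 at day 3 (adjusted p = 0.0512).

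Fdft1, whose product commits farnesyl diphosphate to sterols, went the other way. It stood at 0.32, 0.42, 0.47 and 0.77 at day 7, at 0.06, -0.23, -0.15 and -0.13 at day 3, and at 1.08, 1.14, 1.03 and 1.01 in sham. The groups were fully apart, with sham highest and day 3 lowest. The log2 fold change at day 3 was -1.18 ± 0.13 (adjusted p = 3.45e-05). The only Fdft1 probe of the array holds a stretch that recurs elsewhere in the rat genome, so it is shown here with the files' position (build rn4). Capitals mark letters in runs of 16 that also occur in RefSeq promoters.
Fdft1 probe, chr15:42425389-42425448 (-): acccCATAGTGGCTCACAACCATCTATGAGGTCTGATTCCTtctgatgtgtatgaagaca
Of its 60 letters, 37 lie in such runs, and 107 of the 33469 promoters share at least 1 run with it. Every other probe of the 31 genes shared a run with at most 3 promoters. Whether other transcripts bind this probe was not tested.

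**Figure D2:**
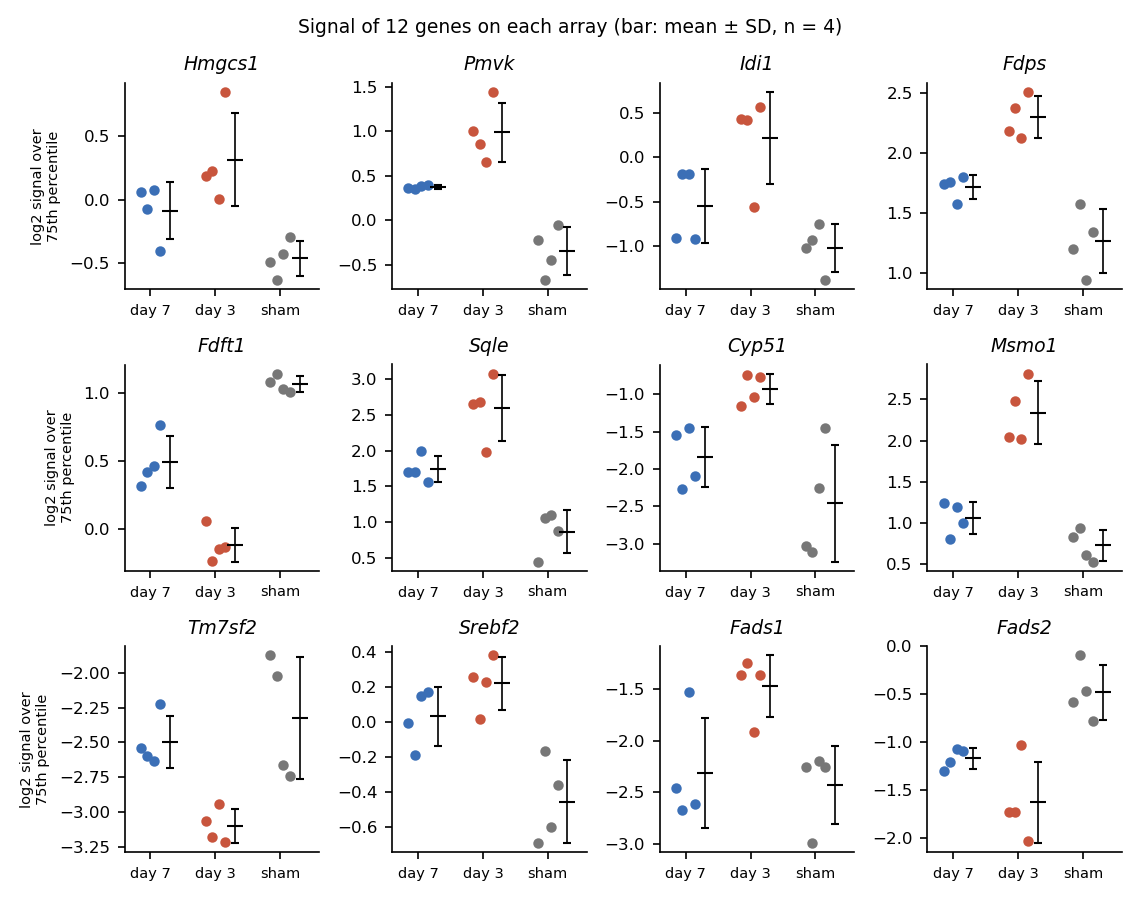
Log2 signal over each array's own 75th percentile (y axis, own scale in each panel) for 12 genes on the 4 arrays of IRI day 7 (blue), IRI day 3 (red) and sham (grey), with mean ± SD beside the points. Sqle, Msmo1, Pmvk and Fdps peak at day 3, whereas Fdft1 is lowest there and highest in sham.

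Among the 10 genes from squalene to cholesterol, 3 rose at day 3 and 2 fell, against 24.2% and 33.1% of all genes. Sqle, the oxygen-dependent entry to the sterol ring steps, stood at 1.71, 1.71, 1.995 and 1.56 at day 7, at 2.65, 2.69, 1.98 and 3.08 at day 3, and at 0.45, 1.06, 1.09 and 0.87 in sham. All injured kidneys were above all sham kidneys, and day 3 replicate 3 lay among the day 7 arrays. The day 3 change was 1.73 ± 0.23 (adjusted p = 8.23e-05).

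Msmo1, which oxidises the methyl groups of early sterols, stood at 1.24, 0.81, 1.19 and 0.99 at day 7, at 2.04, 2.49, 2.02 and 2.81 at day 3, and at 0.83, 0.93, 0.61 and 0.53 in sham. The day 3 arrays were apart from all others, while those of day 7 and sham overlapped. Its day 3 change was 1.61 ± 0.20 (adjusted p = 4.97e-05). Cyp51 stood at -1.54, -2.27, -1.45 and -2.10 at day 7, at -1.16, -0.75, -1.04 and -0.77 at day 3, and at -3.04, -3.11, -2.26 and -1.45 in sham. Sham replicate 4 was the nearest to the injured kidneys, and the day 3 arrays lay above all others, with a change of 1.53 ± 0.34 (adjusted p = 0.00224). That change was 0.10 with normexp (adjusted p = 0.806) and 0.77 when spots under their local background were left out (adjusted p = 0.00373).

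Tm7sf2, a sterol reductase that acts just after Cyp51, fell at day 3. It stood at -2.54, -2.60, -2.63 and -2.22 at day 7, at -3.06, -3.18, -2.94 and -3.21 at day 3, and at -1.88, -2.02, -2.66 and -2.74 in sham. All day 3 arrays were below all others, by -0.77 ± 0.20 against sham (adjusted p = 0.00664). Ebp, the isomerase of the sterol double bond, averaged 2.72 ± 0.22 at day 7, 2.57 ± 0.05 at day 3 and 3.04 ± 0.05 in sham, and fell 1.38-fold at day 3 (adjusted p = 0.00949). Both falls missed the threshold under total signal scaling (adjusted p = 0.0519 for Tm7sf2 and 0.225 for Ebp), where the directions remained. With normexp neither was called, at -0.95 for Tm7sf2 and 0.068 for Ebp.

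The other 5 genes of this step were not called at day 3. The changes were -0.31 ± 0.24 for Lss, which closes the rings to lanosterol, 0.38 ± 0.28 for the decarboxylating Nsdhl, 0.21 ± 0.35 for the desaturase Sc5d and -0.27 ± 0.17 for Dhcr7, the reductase of the last step. Hsd17b7, a ketosteroid reductase, was well above background on 1 day 7 array, on all 4 day 3 arrays and on 1 sham array. That sham array, replicate 2, was brighter (-2.16) than every day 3 array (-3.65 to -2.45), and the change was 1.16 ± 0.60 (adjusted p = 0.118). The gene passed the filter on dim probes through the day 3 group alone.

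Across the arrays, the median difference of the 18 sterol enzymes from the sham mean was 0.10 to 0.30 at day 7, 0.47 to 0.83 at day 3 and -0.05 to 0.20 in sham. Of the 13 genes called higher at day 3, 8 had their lowest day 3 value on replicate 3 and 7 their highest on replicate 4. The same counts over all genes are not given here. Replicate 3 was the only day 3 array on slide 1 and in the first scan batch, and whether this played a part was not tested.

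**Figure D3:**
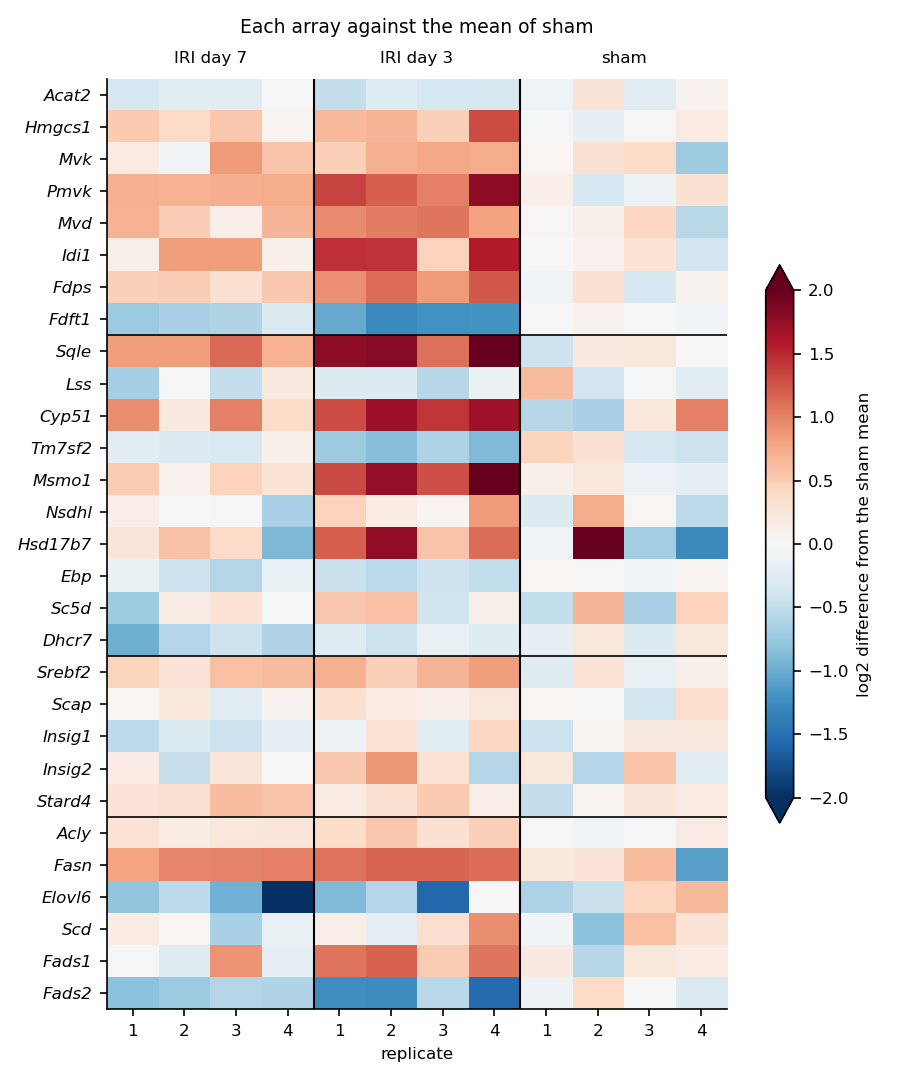
Log2 difference of each of the 29 genes (rows, by pathway step, separated by lines) from its sham mean on each array (columns, in the order IRI day 7, IRI day 3 and sham), with colours ending at -2 and 2. The rows of Pmvk, Sqle and Msmo1 are red at day 3, those of Fdft1 and Fads2 are blue at day 3 and paler at day 7.

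Of the 5 tested genes that sense or regulate sterols, 1 was called higher at day 3, as 24.2% of all genes were. Srebf2, which encodes SREBP-2, the main activator of sterol synthesis genes, stood at -0.00, -0.19, 0.15 and 0.17 at day 7, at 0.26, 0.02, 0.23 and 0.38 at day 3, and at -0.69, -0.17, -0.60 and -0.36 in sham. The day 3 arrays were above all sham arrays, while a day 7 array overlapped with sham. It rose by 0.68 ± 0.16 at day 3 (adjusted p = 0.00306).

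The changes at day 3 were 0.21 ± 0.16 for Scap, 0.10 ± 0.19 for Insig1, 0.28 ± 0.32 for Insig2 and 0.28 ± 0.18 for the cholesterol carrier Stard4, with adjusted p from 0.197 to 0.689. Insig1 is itself a known target of SREBPs, and its arrays ran from -2.28 to -1.92 at day 7, from -1.97 to -1.35 at day 3 and from -2.19 to -1.57 in sham, so all groups overlapped. Under total signal scaling Scap (0.48, adjusted p = 0.0315) and Stard4 (0.56, adjusted p = 0.0142) passed at day 3. The Srebf1 probe was well above background on 2 day 7 arrays, on 3 day 3 arrays and on no sham array.

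In the fatty acid branch 3 of 6 tested genes rose at day 3 and 1 fell, beside 24.2% and 33.1% of all genes. Fasn, the fatty acid synthase, stood at -1.66, -1.46, -1.45 and -1.44 at day 7, at -1.35, -1.29, -1.28 and -1.32 at day 3, and at -2.24, -2.19, -1.81 and -3.53 in sham. The injured kidneys were tightly grouped above all sham kidneys, and sham replicate 4 was the dimmest. The change was 1.13 ± 0.29 at day 3 (adjusted p = 0.00543), and 0.77 without sham replicate 4. It was 0.044 with normexp (adjusted p = 0.936), and 0.49 with normexp when spots under their local background were left out (adjusted p = 0.0251). Acly, which supplies acetyl-CoA to both branches, averaged 0.90 ± 0.06 at day 7, 1.09 ± 0.10 at day 3 and 0.67 ± 0.11 in sham, a rise of 0.42 ± 0.12 at day 3 (adjusted p = 0.00946).

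The neighbouring desaturase genes Fads1 and Fads2, which act in turn in making polyunsaturated fatty acids, moved in opposite directions at day 3. Fads1 stood at -2.45, -2.67, -1.53 and -2.61 at day 7, at -1.36, -1.25, -1.91 and -1.36 at day 3, and at -2.25, -2.99, -2.20 and -2.26 in sham. Fads2 stood at -1.31, -1.21, -1.07 and -1.09 at day 7, at -1.73, -1.73, -1.03 and -2.03 at day 3, and at -0.59, -0.10, -0.47 and -0.78 in sham. For both, the day 3 and sham arrays did not overlap, with Fads1 higher by 0.96 ± 0.28 (adjusted p = 0.0109) and Fads2 changed by -1.15 ± 0.21 (adjusted p = 0.000755). With normexp Fads1 stood at -0.11 (adjusted p = 0.818), and at 0.42 when spots under their local background were left out (adjusted p = 0.0607).

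Scd, the desaturase that makes monounsaturated fatty acids, had a day 3 change of 0.30 ± 0.32 (adjusted p = 0.441), with arrays from -3.77 to -2.96 at day 7, -3.30 to -2.18 at day 3 and -3.94 to -2.51 in sham. Its close relative Scd2, which the array's design calls Scd, rose 3.98-fold at day 3 (1.99 ± 0.27, adjusted p = 0.000107) and 2.85-fold at day 7. It averaged 1.62 ± 0.50 at day 7, 2.10 ± 0.28 at day 3 and 0.11 ± 0.43 in sham. The probes of the pair are shown here because the array's name Scd belongs to Scd2 and its name Scd1 to Scd (build rn4).
Scd probe, chr1:249458860-249458919 (-): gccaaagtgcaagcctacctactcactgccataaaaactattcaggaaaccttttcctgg
Scd2 probe, chr1:249370837-249370896 (+): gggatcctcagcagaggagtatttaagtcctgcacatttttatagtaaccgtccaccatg
Elovl6, which lengthens palmitate, had a pair of probes with similar changes, of which the dimmer passed the threshold. The brighter probe gave -0.76 ± 0.42 at day 3 and -1.11 ± 0.42 at day 7 (adjusted p = 0.143 and 0.0854), and the dimmer probe gave -0.97 ± 0.27 and -1.13 ± 0.27 (adjusted p = 0.00956 and 0.0154). The pair of Acat2 probes gave changes of different size, at -0.35 for the brighter and -1.27 ± 0.31 (adjusted p = 0.00485) for the dimmer at day 3. The Acat2 probes lie far apart on chromosome 1, with starts at 41940014 and 42007241. Whether both read the same transcript was not tested. These probes are shown because the call depends on them.
Elovl6 brighter probe, chr2:227054046-227054105 (+): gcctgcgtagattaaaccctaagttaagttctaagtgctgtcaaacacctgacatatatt
Elovl6 dimmer probe, chr2:227047594-227052367 (+): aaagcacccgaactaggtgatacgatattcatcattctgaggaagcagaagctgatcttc
Acat2 brighter probe, chr1:41940014-41940073 (+): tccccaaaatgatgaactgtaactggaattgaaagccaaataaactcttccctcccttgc
Acat2 dimmer probe, chr1:42007241-42007300 (+): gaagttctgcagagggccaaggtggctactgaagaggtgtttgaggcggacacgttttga
The Acaca probe, for the enzyme that makes malonyl-CoA, was well above background on 2 day 3 arrays and on no other.

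At day 7 fewer of these genes differed from sham. Pmvk rose 1.65-fold, Sqle 1.83-fold, Srebf2 1.40-fold and Fasn 1.92-fold, and Fdft1 fell 1.49-fold, Dhcr7 1.56-fold and Fads2 1.61-fold. These are 4 of 29 genes higher (13.8%) and 3 lower (10.3%), whereas 8.23% of all genes were called higher and 10.6% lower. The median log2 fold change was 0.08 over the 29 genes and -0.07 over all genes. The counts per step were 1 higher and 1 lower from acetyl-CoA to squalene, the same from squalene to cholesterol and in fatty acid synthesis, and 1 higher among the regulators.

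Pmvk (0.72 ± 0.18, adjusted p = 0.0196) and Fdft1 (-0.57 ± 0.13, adjusted p = 0.0133) remained called whichever array was left out. Sqle (0.87 ± 0.23, adjusted p = 0.0218) missed the threshold when sham replicate 1 (adjusted p = 0.0599) or day 7 replicate 3 (adjusted p = 0.0648) was left out. Dhcr7 stood at -1.23, -0.85, -0.67 and -0.86 at day 7, at -0.52, -0.69, -0.41 and -0.50 at day 3, and at -0.42, -0.04, -0.54 and -0.05 in sham. Its day 7 arrays were below all sham arrays (-0.64 ± 0.17, adjusted p = 0.0210), and its call was lost without sham replicate 2 (adjusted p = 0.0516) or day 7 replicate 1 (adjusted p = 0.0620). Its change at day 3 was not called, and day 7 against day 3 gave -0.37 ± 0.17 (adjusted p = 0.104).

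Srebf2 (0.49 ± 0.16, adjusted p = 0.0475), Fasn (0.94 ± 0.29, adjusted p = 0.0405) and Fads2 (-0.69 ± 0.21, adjusted p = 0.0425) were near the threshold at day 7. The call of Srebf2 ended without sham replicate 1, 3 or 4 or day 7 replicate 1, 3 or 4 (adjusted p up to 0.119). That of Fasn ended without sham replicate 1 or any day 7 array (up to 0.0891), and that of Fads2 without sham replicate 1, 2 or 3 or any day 7 array (up to 0.0998). Without sham replicate 4 the change of Fasn was 0.58. Under total signal scaling 9 of the 29 genes were called at day 7 by limma, 9 higher and 0 lower. Of the 4152 genes called among all 18511, 78.0% were higher, against 43.6% of the 3493 called in the main scaling. The falls of Fdft1 (adjusted p = 0.0739), Dhcr7 (0.0976) and Fads2 (0.138) then missed the threshold with their sign kept, and Hmgcs1, Mvd, Fdps, Stard4 and Acly passed as higher.

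Between the injured groups, day 7 set against day 3, 4 of the 18 sterol enzymes fell and 2 rose. Msmo1 fell by 1.28 on the log2 scale (SE 0.20, adjusted p = 0.00139), Sqle by 0.86 (adjusted p = 0.0164), Fads1 by 0.85 (adjusted p = 0.0357), Pmvk by 0.61 (adjusted p = 0.0262) and Fdps by 0.58 (adjusted p = 0.0178). Fdft1 rose by 0.60 ± 0.13 (adjusted p = 0.00723) and Tm7sf2 by 0.60 ± 0.20 (adjusted p = 0.0418). Of the 29 genes 2 were called higher and 5 lower, whereas 18.0% of all genes were called higher and 13.4% lower. The median log2 fold change was -0.35 over the 29 genes and 0.05 over all genes. Among the 18 sterol enzymes the median was -0.43.

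The calls of Msmo1 and Fdft1 between the days held whichever array was left out. Without day 3 replicate 4 only these 2 of the 7 remained called, and Sqle stood at adjusted p = 0.0523, Fdps at 0.0589, Pmvk at 0.0796, Fads1 at 0.0869 and Tm7sf2 at 0.103. Fdps also lost its call without day 3 replicate 2 (adjusted p = 0.0513), Pmvk without day 3 replicate 1 or day 7 replicate 1, 2 or 4, and Tm7sf2 and Fads1 without every array other than replicate 3 of either day. Tm7sf2 missed the threshold under total signal scaling (adjusted p = 0.0526) and quantile normalization (0.128) as well. The comparison shares its day 3 arrays with that of day 3 and sham.

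**Figure D4:**
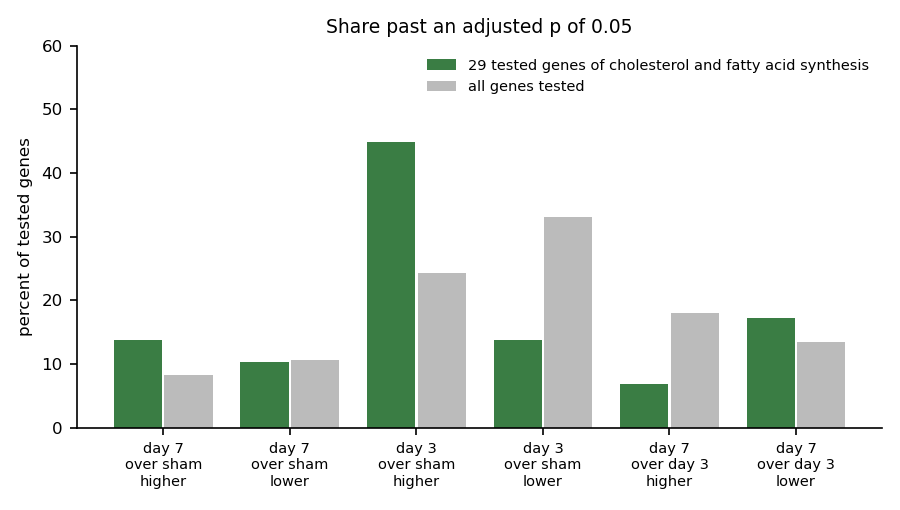
Percent of tested genes past an adjusted p of 0.05 (y axis) by comparison and direction, for the 29 genes of cholesterol and fatty acid synthesis (green) and for all 18511 genes (grey). Of the 29 genes 44.8% were higher at day 3, against 24.2% of all genes. At day 7 over sham 13.8% were higher and 10.3% lower, against 8.23% and 10.6% of all genes. Between the days 6.90% were higher and 17.2% lower, against 18.0% and 13.4%.

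The other gene lists of these pathways are set against all genes, of which 8.23% rose and 10.6% fell at day 7 and 24.2% rose and 33.1% fell at day 3. Of the 13 tested genes of other sterol and isoprenoid synthesis, 0 rose and 5 fell at day 7 by limma, and 2 rose and 6 fell at day 3. Erg28, a scaffold of sterol enzymes, rose 1.63-fold at day 3. Por, which passes electrons to Cyp51 and Sqle and to many drug-metabolising enzymes, fell 4.09-fold at day 7 and 4.42-fold at day 3. The mitochondrial thiolase Acat1 fell 2.0-fold and 5.02-fold, and the electron carrier Cyb5a 2.06-fold and 2.26-fold, at day 7 and at day 3.

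In the list of sterol processing, uptake, export and esterification 6 of 20 tested genes rose and 2 fell at day 7, and 8 rose and 2 fell at day 3, beside 8.23% and 10.6% of all genes at day 7 and 24.2% and 33.1% at day 3. Soat1, which esterifies cholesterol for storage, rose 3.46-fold at day 7 and 7.29-fold at day 3, with 3 of 4 sham arrays well above background. The sterol exporter Abcg1 rose 4.02-fold at day 7 and 4.58-fold at day 3. Apoe, the lipid carrier, rose 2.27-fold at day 7 and had a change of 0.23 ± 0.17 at day 3. Nr1h3, which encodes the oxysterol receptor LXRα, fell 2.32-fold at day 3 and had a change of -0.65 ± 0.24 at day 7 (adjusted p = 0.0778).

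Among 23 tested genes of other fatty acid synthesis, elongation and activation, 3 rose and 4 fell at day 7, and 5 rose and 8 fell at day 3. The day 3 counts are near the 24.2% and 33.1% of all genes. Of all genes 8.23% rose and 10.6% fell at day 7. Besides Scd2, named above, the largest changes against sham were falls. Mlxipl, which encodes the carbohydrate-sensing factor ChREBP, fell 2.02-fold at day 7 and 5.34-fold at day 3. Me1, which supplies NADPH, fell 4.11-fold and 3.12-fold, and Acss2, which activates acetate, fell 2.71-fold and 3.18-fold, at day 7 and at day 3. Of 14 tested genes of triglyceride synthesis and lipid droplets, 2 rose and 4 fell at day 7. Over all genes these shares were 8.23% and 10.6%. At day 3, 3 of the 14 rose and 4 fell, again near the 24.2% and 33.1% of all genes. The droplet coat gene Plin2 rose 1.63-fold at day 7 and 2.46-fold at day 3, and the lipase genes Pnpla2 and Mgll fell 3.65-fold and 3.24-fold at day 3.

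The 10 proximal tubule markers were well above background on all 12 arrays, as kidney tissue has them, and cell type markers differed between the groups in the same comparisons. The summed signal of 10 proximal tubule markers, in units of the 75th percentile, was 180.2 to 343 at day 7, 49.3 to 162 at day 3 and 474 to 543 in sham, with 4 of the 10 lower at day 7 and 8 at day 3. For 4 thick ascending limb markers it was 25.9 to 37.5 at day 7, 2.48 to 7.18 at day 3 and 50.6 to 66.1 in sham. For 5 collecting duct markers it was 37.6 to 49.2, 6.67 to 9.99 and 18.9 to 37.1 in the same groups.

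At day 3, markers of macrophages, cycling cells and fibroblasts moved the opposite way. Macrophage markers summed to 9.51 to 12.8 at day 7, 15.8 to 17.9 at day 3 and 4.30 to 5.91 in sham, with 6 of 8 higher at day 3. Those of cycling cells summed to 2.13 to 6.03 at day 7, 16.4 to 27.2 at day 3 and 1.09 to 1.71 in sham, with 10 of 10 higher at day 3. Fibroblast markers summed to 53.5 to 71.0 at day 7, 74.3 to 118 at day 3 and 15.003 to 25.9 in sham. The sum over 9 adipose markers overlapped between all groups (1.29 to 2.42, 1.503 to 2.31 and 1.51 to 2.56 at day 7, at day 3 and in sham), and Lep and Fabp4 were well above background on no array. The adrenal cortex markers Cyp11b1 and Cyp11b2 were above background on no array either, and the sum of 8 adrenal markers was 0.599 to 0.864 at day 7, 0.440 to 0.534 at day 3 and 0.741 to 1.24 in sham, with 2 of the 4 tested lower at day 3. The part of these shifts in the changes of the synthesis genes was not tested.

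**Figure D5:**
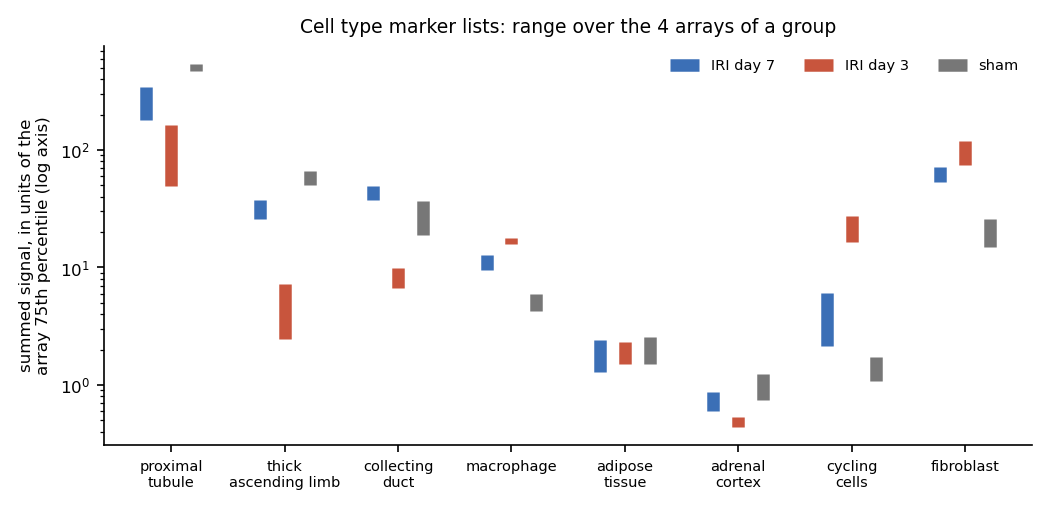
Summed signal of each cell type marker list (y axis, log scale, in units of the array's 75th percentile), as the range over the 4 arrays of IRI day 7 (blue), IRI day 3 (red) and sham (grey). Tubule markers are lowest at day 3 and those of macrophages, cycling cells and fibroblasts highest, while the adipose ranges overlap.

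The arrays lay on 3 slides and were scanned in 2 batches, and every slide and batch held all groups, though in unequal numbers. Slide 1 held sham replicates 1 and 4, day 3 replicate 3 and day 7 replicate 2. For all 17 genes called at day 3, the day 3 and sham arrays did not overlap. Each slide and the second scan batch could thus only give the same direction for these 17 genes. How many of all called genes were likewise apart is not given here. The median over the 29 genes at day 3 was 0.34, 0.31 and 0.53 within the slides and 0.40 within the second scan batch. The first scan batch was slide 1. With the slide as a block 12 genes were higher and 4 lower at day 3, and 2 higher and 2 lower at day 7, where Srebf2 (adjusted p = 0.0502), Fasn (0.0741) and Fads2 (0.0755) missed the threshold. Between the days Pmvk (0.0560), Tm7sf2 (0.0676) and Fads1 (0.0680) then missed it. With the normexp background correction, 5 of the 17 genes called at day 3 kept their call (Pmvk, Fdps, Fdft1, Sqle and Msmo1), and 0 of the 7 in each other comparison.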

How the data were processed

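Total RNA of 12 left kidneys, 4 per group, was labelled with Cy3 and hybridised to Agilent 1-colour arrays. The authors scanned them with Agilent Feature Extraction 9.5.1.1, per the file headers, which gave the intensity of each spot after background subtraction. The deposited value table holds log2 values. Set against the scanner intensities, its columns (r = 0.998 to 0.999, medians from -0.21 to 0.30) are relative to the 75th percentile of each array and centred on each probe's median.

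From the scanner files, log2 intensity minus the array's 75th percentile was computed. Spots of a probe were averaged, probes well above background on all 4 arrays of a group were kept, and the brightest probe stood for a gene. Of 30367 probes, 18343 were named by accession through RefSeq, 2213 by symbol and 595 by synonym, and 9216 kept the file's name. limma 3.58.1 (R 4.3.3) was fitted to all 3 groups, with two-sided p-values adjusted by Benjamini-Hochberg. The members and gene lists were chosen with earlier results of these data known. Beyond the members, the called genes named were among the 4 largest changes of their list in some comparison. Not every such gene was named, and changes of the named genes in other comparisons are also given. The alternatives were other scalings and background corrections, filters, probe rules, blocks and left-out arrays, and the second scan batch on its own was added after the data were seen. Replicate numbers did not pair the samples: deviations of same-numbered samples correlated from -0.33 to 0.14 over 12 pairs. Probe positions are those of the files (rn4), and exons and UTRs were not looked up. Some genes are not reported here.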

Additional observations from a re-analysis of the deposited data

Results flagged for a closer look

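The only sham group was killed at day 7, so the days are compared here between injured groups and not as effects of injury. The level in injured kidneys differed between the days for 7 genes, as tested by the day 7 minus day 3 difference in limma. It was -0.61 for Pmvk (adjusted p = 0.0262), -0.58 for Fdps (adjusted p = 0.0178), -0.86 for Sqle (adjusted p = 0.0164), -1.28 for Msmo1 (adjusted p = 0.00139) and -0.85 for Fads1 (adjusted p = 0.0357). It was 0.60 for Fdft1 (adjusted p = 0.00723) and 0.60 for Tm7sf2 (adjusted p = 0.0418). For the first 5 the change over sham was more positive at day 3, and for Fdft1 and Tm7sf2 it was more negative at day 3.

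A single array lay far from the other 3 of its group in 3 of 87 groups of 4 values searched, and chance gives about 1 in 20 such groups. Fasn on day 7 replicate 1 stood at -1.66, against -1.46 to -1.44 on the others. Idi1 on day 3 replicate 3 stood at -0.56, against 0.42 to 0.57. Fads1 on sham replicate 2 stood at -2.99, against -2.26 to -2.20.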

How the results depend on the processing

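The normexp background correction lowered the number of called genes among the 29 to 5 for day 3 over sham (17 in the main setting), to 0 for day 7 over sham by limma (7) and to 0 between the days (7). Over all genes the calls fell to 3054, 85 and 155 in these comparisons. Mvk (-0.39), Ebp (0.068) and Fads1 (-0.11) then turned their sign at day 3, none of them called, and the cause was not tested. When spots under their local background were left out of that correction, 16, 7 and 8 of the 29 genes were called in the same order of comparisons. Over all 18511 genes that setting gave 11828, 3504 and 7690 calls. Mvk (0.01, adjusted p = 0.961) and Fads1 (0.42, 0.0607) then lost their calls at day 3, Fasn (0.43, 0.104) at day 7 and Fads1 (-0.41, 0.0859) between the days. Elovl6 was gained at day 3 and day 7, and Idi1 and Cyp51 between the days. At day 7 the count was 4 without the filter on dim probes, 4 with the slide as a block, 4 with the scan batch as a block, 4 with only the 2 groups in the fit and 3 with the replicate number as a block. Between the days it was 4 with the slide as a block and 5 with the replicate block, and the replicate block gave 18 at day 3. Over all genes the calls at day 7 (3493 in the main setting) were 2540 of 26432 without the filter. They were 3334 with the slide block, 3217 with the scan batch block, 2093 with only the 2 groups and 2469 with the replicate block. Between the days (5817) they were 4915 with the slide block and 4694 with the replicate block, which gave 10138 at day 3 (10607). Leaving out 1 array gave 9302 to 10536 at day 3, 2044 to 3481 at day 7 and 3472 to 6124 between the days. Among the 29 it gave 16 to 19 called genes for day 3, 3 to 7 for day 7, and 2 to 9 for the contrast of the days. All 17, 7 and 7 called genes kept their direction under every alternative other than normexp at day 3. Single slides, the second scan batch and left-out arrays could not have turned a direction where the 2 groups did not overlap. That held for all called genes at day 3, all but Srebf2 at day 7 and all but Sqle and Fads1 between the days. The replicate block and the fit of only the 2 groups left the fold changes of these genes unchanged, so they could not turn a direction either. The number of arrays and the dim signal of Srebf1, Acaca and Hsd17b7 limit what could be called.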
